A study of Mus musculus with 4 samples.

Results

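Autosomal non-coding RNA genes expressed in mouse bone marrow neutrophils are described here by their levels with and without the transcription factor SRF. A gene was taken as non-coding where all of its transcripts carried a RefSeq non-coding accession (NR_), and members were chosen by the deposited values themselves: the gene had to be tested by the authors, reach 1 FPKM in at least 1 genotype and lie on a numbered chromosome. This gave 491 genes of the 23284 in the gene table, out of 2816 non-coding genes in all and 784 non-coding genes tested. The gene 1810006J02Rik was left out. Since the FPKM values of both genotypes chose the members, their folds and calls are given as a description and no test of the members as a list was made.

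The cells were mature neutrophils sorted from mouse bone marrow as Gr1 high, 7/4 high and high in side scatter (SSC), from 2 Srf WT and 2 Srf KO samples. Beyond the WT or Srf KO genotype the labels name no allele, Cre driver, strain, sex, age or treatment. Libraries were made from total RNA with a TruSeq RNA v2 kit, which does not mark the strand, so reads of a gene and of a gene that overlaps it on the other strand cannot be told apart. The authors deposited 1 FPKM value per genotype (fragments scaled by transcript length and library size), pooled over its samples. The spread between samples and the depth are therefore unknown, and nothing in the labels says whether the samples came from separate animals, so the authors' p-values may measure technical spread only. Log2 folds compare Srf KO with WT, positive where Srf KO was higher, and the value after ± is an implied standard error, that is the size of the log2 fold over the size of its deposited test statistic. A gene is named as called, or as having risen or fallen, where its adjusted p in the authors' deposited table was at most 0.05.

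Non-coding genes are of several kinds. Long non-coding RNAs (lncRNAs) are spliced or unspliced transcripts without a known protein. Some of them serve as hosts, which carry small nucleolar RNAs (snoRNAs) in their introns or microRNAs in their introns or exons. SnoRNAs guide the chemical modification of ribosomal RNA, and the spliced host RNAs left behind are often unstable and degraded by nonsense-mediated decay. MicroRNAs pair with messenger RNAs through their seed. SRF binds the CArG box, a short motif rich in A and T, in promoters of actin genes and of genes for the actin cytoskeleton.

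Srf itself was listed at 13.7 FPKM in WT and 0.439 in Srf KO. The 4 neutrophil markers that were tested (Mmp8, Csf3r, Cxcr2 and Itgam) all fell, from a summed 4298 FPKM in WT to 1881 FPKM in Srf KO, while S100a8, S100a9, Camp, Ltf and Ngp were too abundant for the authors' test. Of 35 tested markers of other blood and marrow cells, 26 rose and 1, the macrophage gene Emr1, fell. The 6 T and NK cell markers summed to 20.2 FPKM in WT and 47.1 in Srf KO, the 5 B cell markers to 87.5 and 125, the 6 erythroid markers to 96.4 and 124, and the 5 megakaryocyte and platelet markers to 5.29 and 45.4. The 6 macrophage markers summed to 56.7 and 106 FPKM, the 4 eosinophil, basophil and mast cell markers to 53.8 and 112, and the 3 progenitor markers to 11.1 and 22.03. None of the tested markers was at 0 in either genotype. The X-linked RNA Xist, which is made from the inactive X chromosome of female cells, was at 0.0154 FPKM in WT and 4.92 in Srf KO. Since the labels give no sex, a difference in sex between the WT and Srf KO animals and the genotype cannot be told apart. The part of these cell type and Xist differences in the results below was not tested, and in these bulk samples fewer cells of a type and less RNA per cell cannot be told apart.

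Of the 491 genes, 111 were called: 64 rose and 47 fell in Srf KO, a share of 22.6%. Among all 12634 tested genes the share called was 35.5%, with 17.7% higher and 17.8% lower. Among 9754 coding genes held to the same level and chromosome rule it was 38.6%, with 17.3% higher and 21.2% lower. A fold could be formed for 425 members, since 32 were listed at 0 in WT and 34 at 0 in Srf KO. Their median log2 fold was 0.06, beside 0.08 for all tested genes and 0.00 for the coding genes. When folds were measured from the median of all tested genes and the authors' test recomputed, 52 members were higher and 58 lower, so which direction held more calls changed with the centring. All tested genes shifted the same way, from 2234 higher and 2252 lower to 1815 higher and 2575 lower, so this shift is not particular to the members. Both genotypes reached 1 FPKM for 357 members, of which 52 rose and 36 fell. A further 69 members reached it in Srf KO only, of which 12 rose and 0 fell. Another 65 reached it in WT only, of which 0 rose and 11 fell. For members that reached it in 1 genotype only, the rule itself set the direction, also where they are named below. Just inside the level minimum lay 4930519F09Rik (larger value 1.01 FPKM), Gm7854 (1.01 FPKM) and 1110006O24Rik (1.02 FPKM), and just outside it 9430008C03Rik (0.999 FPKM), AY512931 (0.994 FPKM) and B930018H19 (0.988 FPKM).

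The members were matched to RefSeq by accession (461 genes), by symbol (12) or by an older symbol (12), and 6 had no match. They comprised 240 lncRNAs, of which 23 were snoRNA hosts and 7 microRNA hosts, 139 small RNA genes and 90 pseudogenes. The others were 16 genes now annotated as coding, 2 genes classed here as ribosomal RNA (Rn45s and Rn4.5s) and 4 genes without a current annotation. The classes differed in how many members were called. Of the snoRNA hosts 14 rose and 0 fell, of the microRNA hosts 1 rose and 3 fell, and of the other 210 lncRNAs 22 rose and 29 fell. Among the pseudogenes 21 rose and 13 fell, among the genes now annotated as coding 3 rose and 0 fell, and among the 139 small RNA genes 2 rose and 1 fell.

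**Figure D1:**
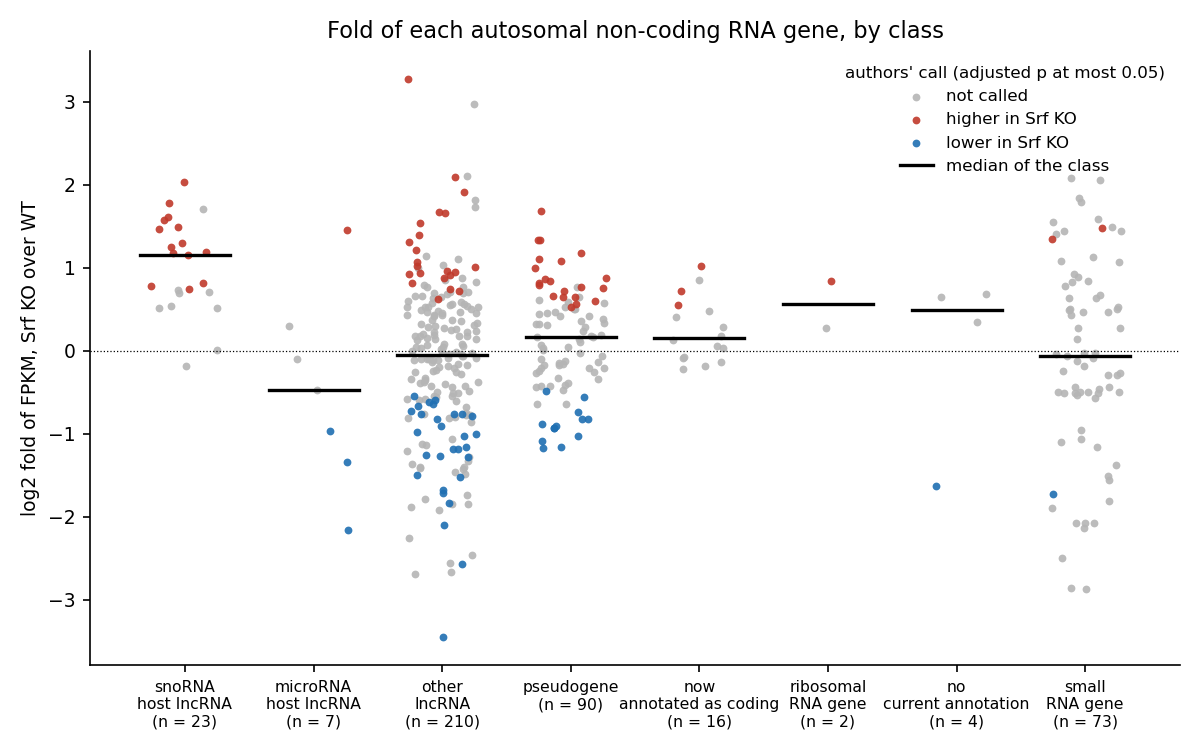
Log2 fold of FPKM (Srf KO over WT, vertical axis) for the 425 members above 0 in both genotypes, by class (horizontal axis), with 1 point per gene coloured by the authors' call and a black line at the median of each class. The snoRNA hosts lie mostly above 0, with a median of 1.15, while the other lncRNAs and the pseudogenes spread to both sides.

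Most snoRNA hosts were higher in Srf KO and none was called lower. The median log2 fold of the 23 hosts was 1.15, and 22 of them had a positive fold. These values include 2700023E23Rik, Snhg4 and 2700038G22Rik, at 0.488, 0.767 and 0.779 FPKM in WT. They reached the minimum of 1 FPKM in Srf KO only, so the rule itself made their folds positive. The median without them was not computed. They were found as lncRNA members with an annotated snoRNA inside them on the same strand or as members of a list of host symbols. Snhg4 was included by its symbol alone, and 2900076A07Rik and AI506816 by Mir1839 and Mir3096, which the annotation classes as snoRNAs in spite of their names. Of the 35 markers of other cell types 26 rose too, and their part in the host values was not tested.

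The snoRNAs are shown because carrying them made most of these genes hosts, and the starts because of the run described below. SnoRNA genes also share loci with coding genes, such as Snord33 with Rpl13a, so carrying one is not particular to these members. 3 box C/D snoRNAs (GENCODE M21, GRCm38, 5′ to 3′) are given with the C box (TGATGA) and the D box (CTGA) in capitals. Snord60 lies in 2610019E17Rik at chr17:24528476-24528553 (+ strand), Snord87 in Snhg6 at chr1:9942463-9942549 (- strand) and Snord50a in Snhg5 at chr9:88521529-88521600 (- strand).
Snord60: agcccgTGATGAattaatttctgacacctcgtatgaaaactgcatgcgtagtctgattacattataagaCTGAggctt
Snord87: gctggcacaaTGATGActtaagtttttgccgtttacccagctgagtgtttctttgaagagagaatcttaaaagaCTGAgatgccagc
Snord50a: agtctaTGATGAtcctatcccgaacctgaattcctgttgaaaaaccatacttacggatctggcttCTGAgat

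Transcripts of the translation machinery, snoRNA hosts among them, are known to start in a run of pyrimidines, the 5′ terminal oligopyrimidine tract. The starts below run from 10 bases before the RefSeq start to 30 bases from it (GRCm38), with a run of at least 6 C or T bases that comes within 5 bases of the start in capitals. They are Snhg1 at chr19:8723477-8723516 (+), 2610019E17Rik at chr17:24528241-24528280 (+), Gas5 at chr1:161035156-161035195 (+), Snhg12 at chr4:132308668-132308707 (+), 2410006H16Rik at chr11:62602867-62602906 (+) and, without such a run, Snhg3 at chr4:132353657-132353696 (-).
Snhg1: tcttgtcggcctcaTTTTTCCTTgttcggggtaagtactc
2610019E17Rik: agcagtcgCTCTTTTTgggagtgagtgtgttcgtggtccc
Gas5: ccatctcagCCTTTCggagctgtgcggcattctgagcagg
Snhg12: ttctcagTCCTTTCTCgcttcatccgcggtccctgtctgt
2410006H16Rik: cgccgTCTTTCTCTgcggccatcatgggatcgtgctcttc
Snhg3: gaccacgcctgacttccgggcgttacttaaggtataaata

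Of the 20 hosts with a start sequence in the RefSeq table, 13 (65.0%) had such a run, beside 24.0% of 27025 genes with a promoter sequence. A host was counted where any of its starts had the run: Gas5 and 9330159M07Rik each have another start without it. On the other strand the run was found in 2 of the 20 hosts and 25.9% of all genes. The run did not set the called hosts apart: 6 of 11 called hosts and 7 of 9 hosts that were not called had one. Among all members with a start sequence the run was present in 15 of 29 that rose, 1 of 27 that fell and 41 of 153 that were not called. These counts include the 11 called and 9 uncalled hosts, so they are no separate observation, and a count without hosts was not made.

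Dancr, listed as 2700023E23Rik (chr5:74093083-74094336) and host of Snora26, was at 0.488 FPKM in WT and 1.99 in Srf KO, a log2 fold of 2.03 ± 0.45. Snhg3 (chr4:132351933-132353686), host of Snora73a and Snora73b, was at 6.23 and 21.4 FPKM, a log2 fold of 1.78 ± 0.31 (adjusted p = 1.65e-07 in the authors' deposited table). These were the hosts with the largest folds. 2610019E17Rik, now Rab26os, rose from 3.74 to 11.5 FPKM (log2 fold 1.62 ± 0.47), and Snhg6 rose from 11.9 to 32.9 FPKM (1.46 ± 0.28). Snhg1, whose span holds 8 snoRNAs, rose from 15.7 to 37.3 FPKM, a log2 fold of 1.24 ± 0.26. Snhg5 rose from 6.27 to 14.3 FPKM (1.19 ± 0.25) and 1110038B12Rik, host of Snord52, from 5.81 to 13.1 FPKM (1.17 ± 0.40). In each of these genes the Srf KO value was more than 2 times the WT value.

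Gas5, named for its level in growth-arrested cells and host of 10 annotated snoRNAs, had the smallest log2 fold among the called hosts, 0.74 ± 0.21 (7.58 FPKM in WT, 12.6 FPKM in Srf KO). The remaining called hosts were Snhg4, 2410004N09Rik (now Epb41l4aos), 2810008D09Rik (now Snhg20), Snhg7, Gm11974 (now Snhg15) and 2900076A07Rik, with log2 folds from 0.78 for 2900076A07Rik to 1.58 for Snhg4. Of the 9 hosts not called, Snhg12 was at 5.45 FPKM in WT and 9.03 in Srf KO and Snhg8 at 6.04 and 8.62 FPKM. The most abundant host, 2410006H16Rik, which holds Snord49a, Snord49b and Snord65, was at 60.4 FPKM in WT and 60.6 in Srf KO, a log2 fold of 0.00 ± 0.22. With a log2 fold of -0.18 ± 0.29, 9330159M07Rik was the only host with a negative value. For the uncalled hosts AA465934 and 2700038G22Rik the implied errors were 1.08 and 2.20, beside 0.21 to 0.54 for the other hosts.

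**Figure D2:**
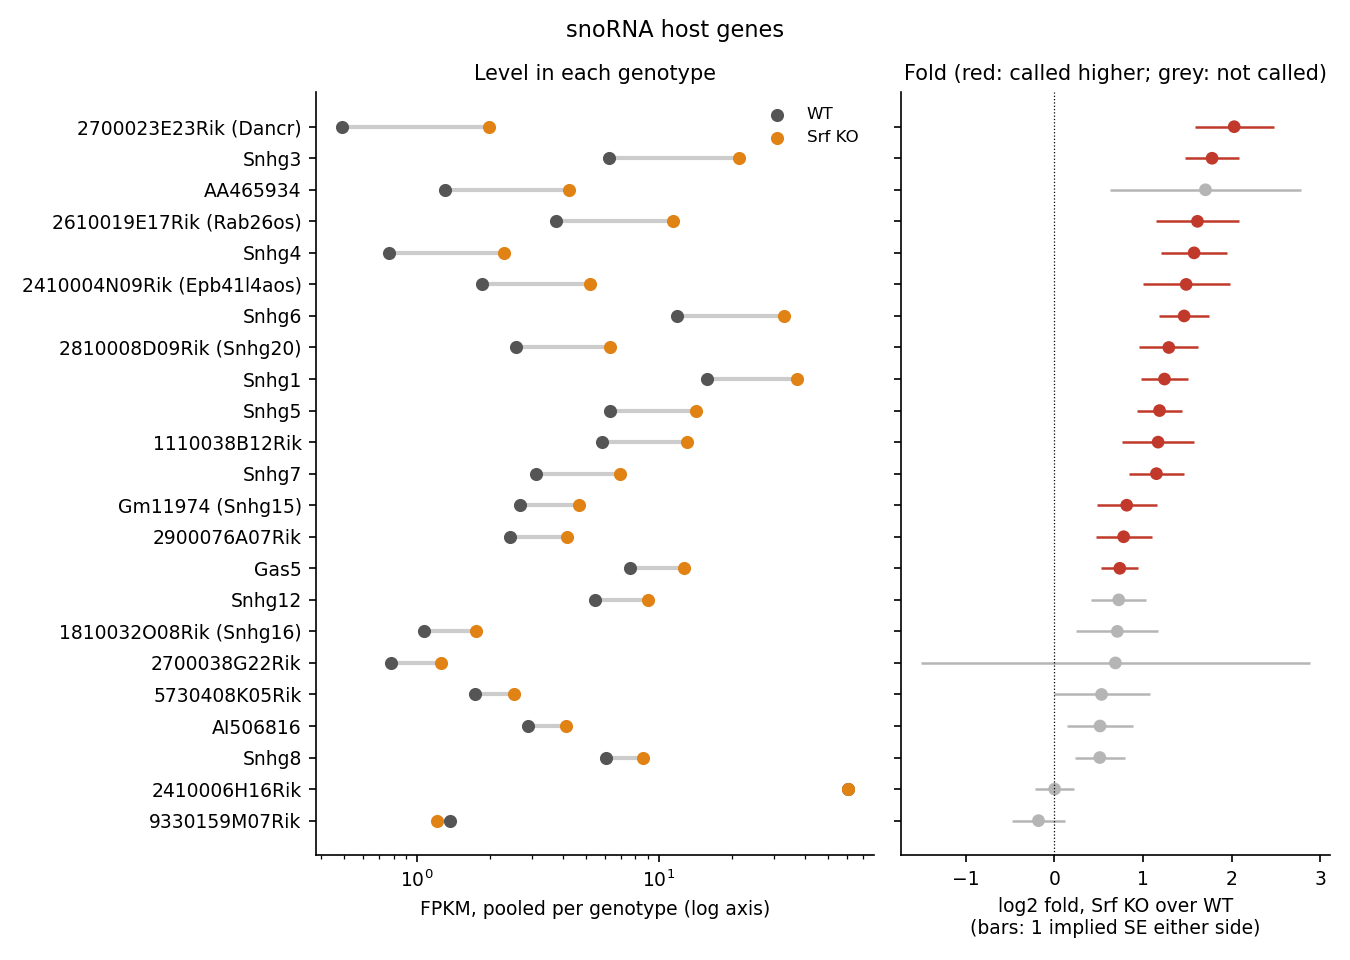
FPKM of the 23 snoRNA host genes in WT (grey) and Srf KO (orange) on a log axis at left, and their log2 folds with bars of 1 implied standard error at right, red where the authors called the gene. The called folds run from 0.74 for Gas5 to 2.03 for 2700023E23Rik (Dancr), and 2410006H16Rik is the same in both genotypes within its error.

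The proteins that assemble on snoRNAs were looked at beside their hosts, and the counts of this and the following lists stand beside 17.7% called higher and 17.8% called lower of all tested genes. Of 15 tested genes of the snoRNA particle and its assembly factors, 11 rose and 0 fell, with a median log2 fold of 0.84. Among them Fbl, the methyltransferase of box C/D particles, rose from 17.3 to 27.8 FPKM, Nop58 from 7.60 to 17.8 FPKM and Nop56 from 11.9 to 22.2 FPKM. Gar1, a protein of box H/ACA particles, rose from 2.83 to 5.68 FPKM, while its partner Dkc1 was at 5.65 and 11.7 FPKM and was not called (log2 fold 1.05 ± 0.48). Of 9 tested proteins of RNase P and RNase MRP, 4 rose (Pop5, Rpp14, Rpp30 and Rpp38) and 0 fell. Of 10 tested genes of nonsense-mediated decay, 4 fell and 1 rose: Upf1, its central helicase, fell from 16.5 to 8.40 FPKM, Upf2 from 18.4 to 11.7 FPKM, the kinase Smg1 from 17.5 to 10.8 FPKM and Dhx34 from 3.82 to 1.68 FPKM, and Upf3b rose from 6.65 to 11.8 FPKM. Rn45s, listed for the precursor of ribosomal RNA, rose from 154 to 277 FPKM, a log2 fold of 0.84 ± 0.20. Whether its reads came from the precursor or from mature ribosomal RNA was not tested, so this value does not measure ribosomal RNA synthesis. Rn4.5s was at 9.03 and 11.0 FPKM (0.28 ± 0.76).

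The 7 microRNA hosts had folds of both signs. Some of their mature microRNAs (RefSeq, GRCm38, 5′ to 3′) are shown because they name what these transcripts could give rise to. The seed, bases 2 to 8, is in capitals. Only microRNAs inside the span of the table's locus are counted, and for Mir17hg this span holds miR-92a-1 alone. Some microRNAs of 1 host share a seed: miR-291a-3p, miR-294-3p and miR-295-3p of D7Ertd143e do, as do miR-29b-3p and miR-29c-3p of A330023F24Rik and miR-15a-5p and miR-16-5p of Dleu2. Others do not: miR-291b-3p and miR-293-3p of D7Ertd143e, not shown, have other seeds.
miR-291a-3p: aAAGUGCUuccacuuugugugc
miR-294-3p: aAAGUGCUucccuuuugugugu
miR-295-3p: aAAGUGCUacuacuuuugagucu
miR-29b-3p: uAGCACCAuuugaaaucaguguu
miR-29c-3p: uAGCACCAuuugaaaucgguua
miR-101a-3p: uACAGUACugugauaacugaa
miR-15a-5p: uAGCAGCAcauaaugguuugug
miR-16-5p: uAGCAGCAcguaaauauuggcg
miR-22-3p: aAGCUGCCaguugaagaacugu
miR-92a-3p: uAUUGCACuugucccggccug

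D7Ertd143e (chr7:3218784-3221015), the host of the miR-290 to miR-295 cluster known from embryonic stem cells, fell from 3.03 to 0.680 FPKM, a log2 fold of -2.15 ± 0.30. A330023F24Rik (chr1:195017399-195037908), host of miR-29b-2 and miR-29c, fell from 1.64 to 0.648 FPKM (-1.34 ± 0.28). E130102H24Rik (chr4:101346524-101399185), host of miR-101a, fell from 4.16 to 2.13 FPKM (-0.97 ± 0.33). Mir17hg (chr14:115044305-115046728), the host of a growth-related cluster, was the only microRNA host that rose, from 0.622 to 1.70 FPKM, a log2 fold of 1.45 ± 0.32. Mir17hg reached the minimum of 1 FPKM in Srf KO only, and D7Ertd143e and A330023F24Rik reached it in WT only. The rule itself therefore set the sign of these folds. The more abundant hosts were not called: Dleu2 was at 24.4 FPKM in WT and 17.5 in Srf KO, and 2210403K04Rik, now Mir22hg, at 15.7 and 14.7 FPKM. Gm15987, which holds miR-7649, was at 2.13 and 2.62 FPKM. Of 10 tested genes that process microRNAs or act with them, Drosha, the nuclear nuclease, rose from 1.91 to 3.12 FPKM, and the Argonaute genes Eif2c2 and Eif2c4 fell from 14.9 to 3.99 FPKM and from 5.63 to 3.69 FPKM. Dicer1 was at 4.34 and 4.38 FPKM.

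Well-known regulatory lncRNAs did not move together: of 9 members on a list of such genes, 3 fell, 1 rose and 5 were not called. Malat1 (chr19:5795690-5802671), an abundant RNA of nuclear speckles, fell from 89.0 to 39.7 FPKM, a log2 fold of -1.17 ± 0.19 (adjusted p = 1.39e-08 in the authors' deposited table). Its chromosomal neighbour Neat1 (chr19:5842302-5845478), the scaffold of paraspeckles, was at 170 FPKM in WT and 232 in Srf KO, a log2 fold of 0.45 ± 0.19 (adjusted p = 0.054 in the authors' deposited table), and was not called. The table's locus for Neat1 covers the short form of this RNA. Of 16 tested paraspeckle proteins 2 rose, Nudt21 from 24.0 to 39.8 FPKM and Fam98a from 3.75 to 6.08 FPKM, and 0 fell. 

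5330426P16Rik, now Dubr, fell from 9.78 to 3.45 FPKM (-1.50 ± 0.25). Peg13, an imprinted RNA inside the gene Trappc9, fell from 22.8 to 12.1 FPKM (-0.91 ± 0.22). 1190002F15Rik, now Lockd, a transcript downstream of the cell cycle inhibitor Cdkn1b, rose from 16.6 to 27.5 FPKM (0.72 ± 0.25). Gm14005, now Morrbid, which is known to set the lifespan of neutrophils and other short-lived myeloid cells, was at 41.4 FPKM in WT and 38.1 in Srf KO, a log2 fold of -0.12 ± 0.27. Tug1 was at 34.7 and 33.8 FPKM, 2900097C17Rik (now Norad) at 27.0 and 29.9 FPKM and 1700020I14Rik (now Oip5os1) at 35.04 and 23.4 FPKM, and none of these gene rows was called. Of the 2 transcript rows of 1700020I14Rik the more abundant in WT was called lower, at 20.2 FPKM in WT and 11.3 in Srf KO (-0.83 ± 0.27), and the other, with a log2 fold of -0.30 ± 0.31, was not.

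Among the most abundant of the other lncRNAs, Gm10872, now Mirt2, fell from 104 to 51.0 FPKM (-1.03 ± 0.20) and 1600010M07Rik from 118 to 69.8 FPKM (-0.76 ± 0.20), while B230208H11Rik rose from 34.6 to 72.4 FPKM (1.07 ± 0.24). 2310001H17Rik, at 135 FPKM in WT and 101 in Srf KO, 1700047M11Rik, at 92.0 and 124 FPKM, and 2610507I01Rik, at 79.5 and 63.0 FPKM, were not called. Of 19 lncRNAs named as the opposite strand of a coding gene, 3 rose (Cep83os, listed as 4932415G12Rik, and the snoRNA hosts Rab26os and Epb41l4aos) and 0 fell. 

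The largest rise of all members was that of 2210039B01Rik (chr12:73548483-73551986, + strand), a lncRNA. It went from 1.10 FPKM in WT to 10.6 FPKM in Srf KO, a log2 fold of 3.28 ± 0.32. At the level of transcripts its most abundant one was not tested, so the call rests on the gene row. Mira, a transcript at chr6:52214492-52215288 in the Hoxa cluster, rose from 0.321 to 1.37 FPKM (2.09 ± 0.60). Gm5860 rose from 0.670 to 2.52 FPKM (1.91 ± 0.40) and the pseudogene Bambi-ps1 from 2.07 to 6.66 FPKM (1.69 ± 0.29). Gm5547, I730030J21Rik and Gm15706 rose by log2 folds between 1.53 and 1.67, each to between 2.20 and 3.12 FPKM. At least Mira, Gm5860 and I730030J21Rik reached the minimum of 1 FPKM in Srf KO only, so the rule itself made their folds positive. The other 5 of the 12 largest rises were snoRNA hosts.

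The largest fall was that of 1700071M16Rik, from 19.9 to 1.81 FPKM, a log2 fold of -3.45 ± 1.19. Its locus, chr17:43568451-43612201, is the one it shares with the coding gene Pla2g7. Neither of its 2 transcript rows was called (adjusted p = 0.059 and 0.211 in the authors' deposited table). Gm10684 fell from 14.6 to 3.43 FPKM (-2.09 ± 0.59). Both share a locus with a coding gene that fell too. Gm12505 (chr4:55410443-55418842) shares none and fell from 17.4 to 4.89 FPKM (-1.83 ± 0.27). 4932411L15, 4933432I03Rik and 4930470H14Rik, likewise on loci of their own, fell by log2 folds between -1.72 and -1.53. A130040M12Rik, which has no current annotation, fell from 208 to 67.2 FPKM (-1.63 ± 0.18).

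**Figure D3:**
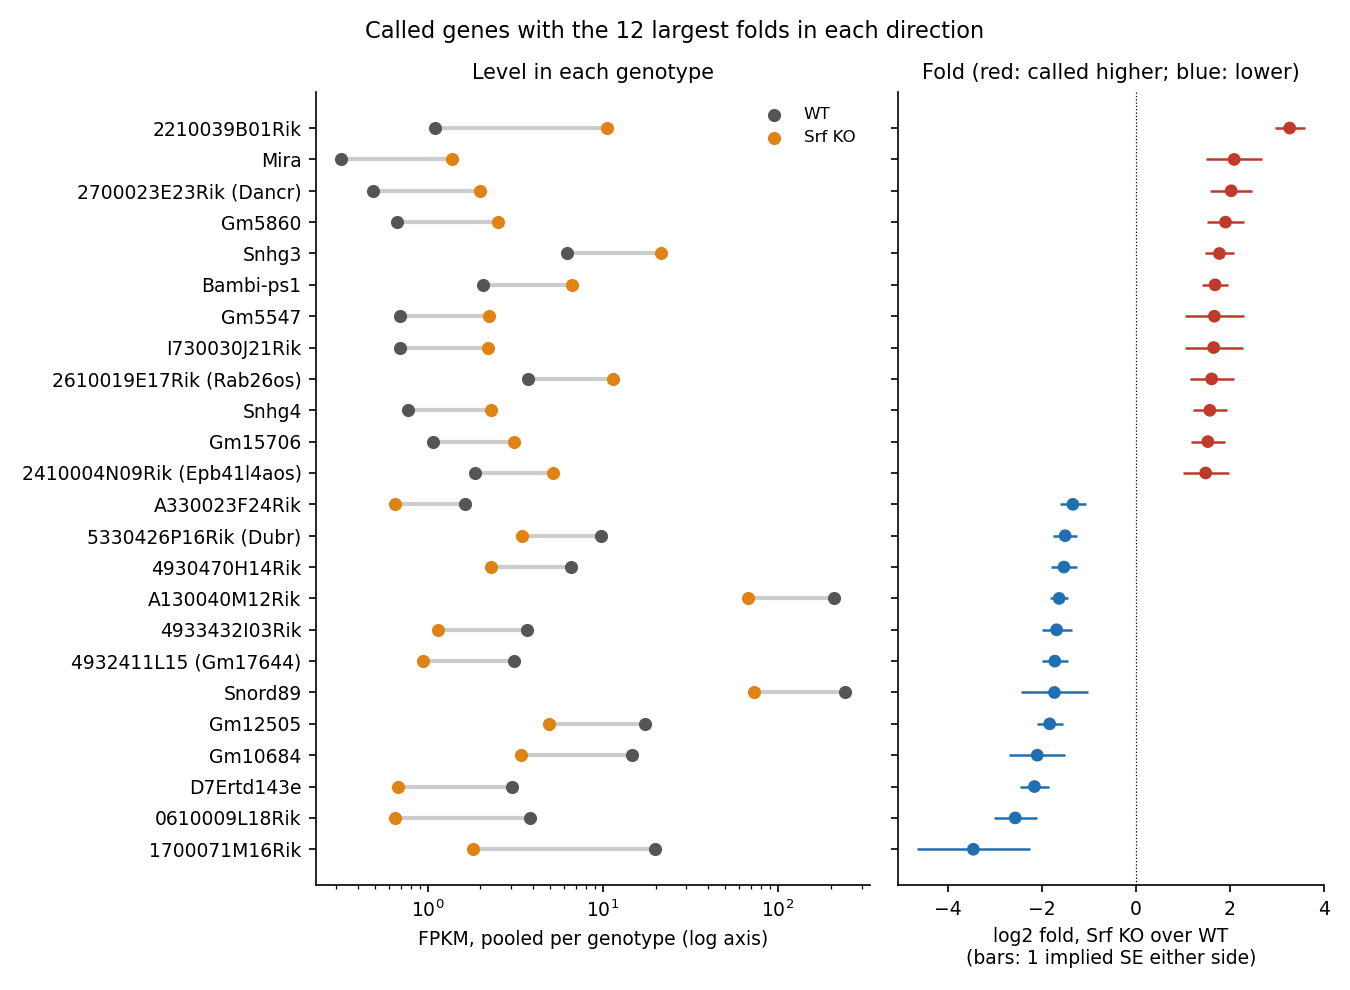
FPKM in WT (grey) and Srf KO (orange) on a log axis at left and log2 folds with bars of 1 implied standard error at right for the called members with the 12 largest folds in each direction. 2210039B01Rik is at 10.6 FPKM in Srf KO against 1.10 in WT, and 1700071M16Rik, with the widest bar, is at 1.81 against 19.9.

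The fall of 0610009L18Rik was the largest among members that share no locus with a coding gene. This lncRNA (chr11:120348678-120351190, + strand) was at 3.82 FPKM in WT and 0.646 in Srf KO, a log2 fold of -2.56 ± 0.45 (adjusted p = 3.63e-07 in the authors' deposited table). It reached the minimum of 1 FPKM in WT only, so the rule itself made its fold negative. Its start lies 183 bases from that of Actg1, the gene for cytoplasmic gamma-actin, which is read in the other direction and fell from 2246 to 262 FPKM (-3.10 ± 0.20). The window from 250 bases before to 50 after the start of 0610009L18Rik (RefSeq, GRCm38, chr11:120348428-120348727, + strand), which also holds the start of Actg1, is shown because it contains a CArG match, in capitals.
0610009L18Rik: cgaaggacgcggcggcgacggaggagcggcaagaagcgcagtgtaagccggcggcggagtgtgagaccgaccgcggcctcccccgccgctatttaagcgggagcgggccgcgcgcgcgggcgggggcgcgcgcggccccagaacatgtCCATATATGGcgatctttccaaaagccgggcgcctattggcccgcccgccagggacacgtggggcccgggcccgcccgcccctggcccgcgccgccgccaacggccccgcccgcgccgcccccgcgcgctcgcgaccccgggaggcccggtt

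The match spans bases -102 to -93 from the start of 0610009L18Rik and lies 81 to 90 bases upstream of the start of Actg1. The CArG box reads the same on both strands, so 1 search covers both. Windows of this length were searched for 27025 genes with a promoter sequence, and 1.81% of these genes had a match. Among the 209 members with such a sequence 3 had a match (1.44%). The other 2 were 5430417L22Rik, which rose from 4.70 to 6.85 FPKM (0.54 ± 0.22), and 4930455C13Rik, at 1.04 FPKM in WT and 0.592 in Srf KO with an implied error of 1.58. A match is a description of the letters in the window, not evidence of binding.

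Of the 347 long members matched to the reference, 209 had a start site there. Of these, 67 started within 1000 bases of a tested coding gene on the other strand, and in 41 of these pairs both folds had the same sign. Both genes were called in 5 pairs. Besides 0610009L18Rik and Actg1, both fell in the pairs of Gm16675 with Irf2, an interferon regulatory factor (log2 folds -0.82 ± 0.28 and -0.68 ± 0.18), and of D330023K18Rik with Gpr107 (-0.76 ± 0.31 and -0.89 ± 0.20). The called genes moved in opposite directions in the pairs of Gas5 with Zbtb37 (0.74 ± 0.21 and -1.87 ± 0.29) and of 4930515G01Rik with Ankrd13a (0.96 ± 0.39 and -0.68 ± 0.18). In both of these pairs the 2 RefSeq transcripts overlap at their starts, but the genes were measured on separate loci. For Gas5 the overlap is at the upstream of its RefSeq starts, position 161034601. That start lies outside the measured locus of Gas5, which begins at 161035166. Across the 67 pairs Pearson's r was 0.33 and Spearman's rho 0.27. These describe pairs of genes measured in the same libraries without strand, not replicates.

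**Figure D4:**
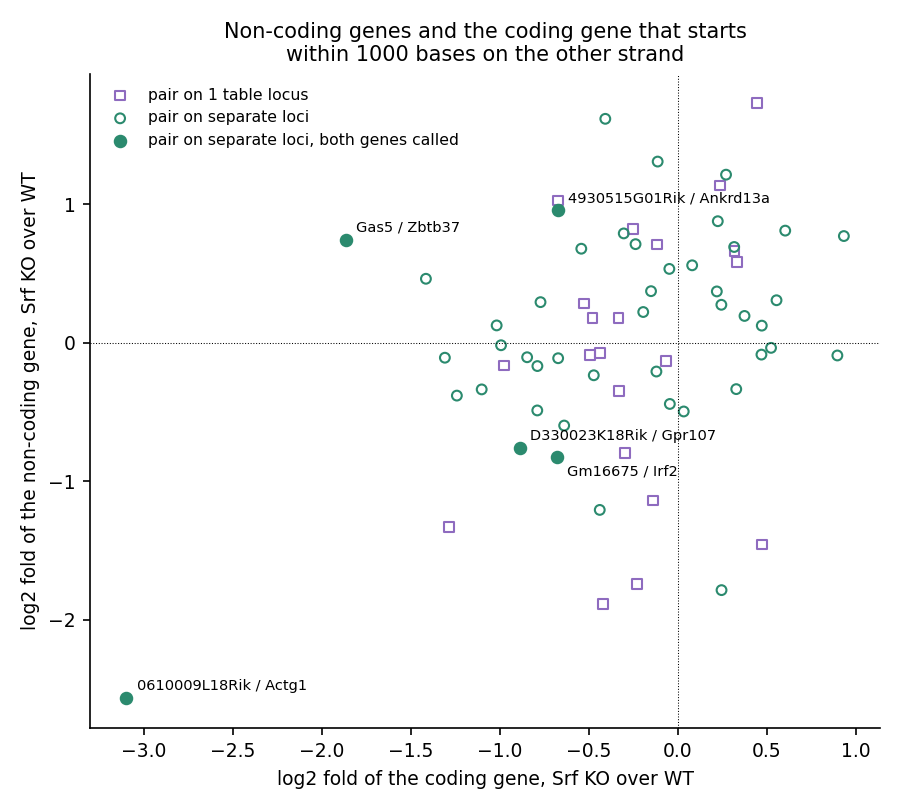
Log2 fold (Srf KO over WT) of 67 members against that of the coding gene that starts within 1000 bases on the other strand, with filled points where both genes were called and squares where the table gives both genes 1 locus. 0610009L18Rik and Actg1 stand alone at lower left, and Gas5 and Zbtb37 have opposite signs.

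Many members sit inside or beside a coding gene, and this went with the precision of the fold. The table gave 224 members the same locus as a coding gene, and their median implied error was 1.17; 21 of them were called (9.38%). The 267 members with a locus of their own had a median implied error of 0.29, and 90 of them were called (33.7%), near the 35.5% of all tested genes. For all tested genes the median implied error was 0.24. Among the lncRNAs that were no hosts, 11 of 96 that shared a locus and 40 of 114 that did not were called.

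Of the 119 long members whose best expressed coding gene at the same locus was tested, 86 had a fold of the same sign as that gene. Both were called in 6 pairs, always in the same direction. 1700071M16Rik stood beside Pla2g7, the gene for a phospholipase secreted by myeloid cells, which fell from 167 to 49.2 FPKM (-1.76 ± 0.19). Gm10684 stood beside Amica1, an adhesion molecule of leukocytes, which fell from 121 to 23.7 FPKM (-2.35 ± 0.20). 6530402F18Rik (30.9 to 13.6 FPKM) stood beside Ntng2 (45.1 to 18.7 FPKM), Gm10872 beside Spatc1 (6.38 to 1.15 FPKM), Gm6498 beside Peli2 (11.2 to 6.97 FPKM) and Gm10653 beside Cln6 (6.72 to 11.3 FPKM). The call of Gm10653 was lost when folds were centred on all tested genes (log2 fold 0.64), so the count of such pairs depends on the centring.

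The remaining called members with a shared locus stood beside coding genes that were not called or not tested. In 2 of these pairs the fold had the other sign: E030024N20Rik, a pseudogene, rose from 15.3 to 32.9 FPKM beside Gnaq (19.3 and 13.8 FPKM), and Gm13363, also a pseudogene, fell from 49.6 to 26.1 FPKM beside Ptp4a1 (7.64 and 8.29 FPKM). Gm15421 (log2 fold 1.34), E130307A14Rik (1.02), Rps15a-ps6 (0.87) and Gm6793 (0.57) rose, and 4933439K11Rik (-0.98), Peg13 (-0.91), Pisd-ps1 (-0.83) and C920009B18Rik (-0.77) fell, each beside an uncalled coding gene with a fold of the same sign. The call of Gm6793 was lost with the same centring (log2 fold 0.49). The coding genes beside Gm6525 (1.08), Gm10069 (0.91), Mir703 (1.48), 4931428L18Rik (-1.28) and Gm15910 (-0.72) were not tested. With an unstranded kit these values cannot show which of the overlapping genes the reads came from.

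Small RNA genes carried little information. The 139 of them, 60 snoRNA and 73 microRNA genes among them, had a median implied error of 7.24, and 66 were listed at 0 in 1 genotype. The library method does not select molecules of this size, and FPKM divides by a very short length, so high values do not measure the mature RNA. Mir142, a microRNA gene of blood cells, was at 1023 FPKM in WT and 850 in Srf KO with an implied error of 0.66. Mir3064, inside Ddx5, was at 1626 and 841 FPKM with an implied error of 9.32. Snord47, inside Gas5, was at 211 and 400 FPKM with an error of 3.68. 3 were called: Mir703, which shares a locus with the coding gene 1700007G11Rik, rose from 405 to 1131 FPKM, Mir684-2 rose from 233 to 592 FPKM and Snord89 fell from 242 to 72.9 FPKM.

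Length went with precision over the members with a fold and a known length. The median implied error was 7.68 for 40 members with a longest transcript of up to 100 bases, 6.81 for 34 members of 100 to 300 bases and 0.33 for 116 members of 300 to 1000 bases. It was 0.32 for 164 members of 1000 to 3000 bases and 0.27 for 50 longer ones. Among members on loci of their own the median was 1.46 for 10 of up to 100 bases and 2.14 for 11 of 100 to 300 bases. For 76 such members of 300 to 1000 bases it was 0.31. Length and a shared locus thus both went with precision among the short members.

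**Figure D5:**
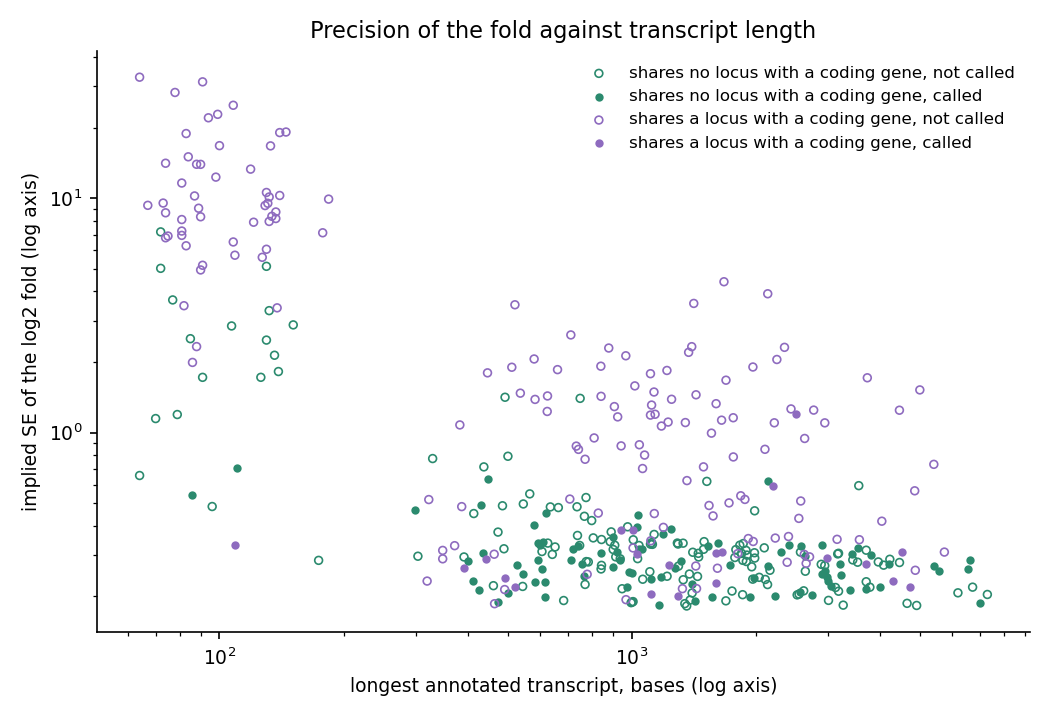
Implied standard error of the log2 fold against the longest annotated transcript of each member, both on log axes, with green points for members on loci of their own, purple for members that share a locus with a coding gene, and filled points for called genes. Errors above 5 occur only up to 300 bases, and the median is 0.33 or lower above that length.

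The 90 pseudogenes are copies of coding genes, so reads of parent and copy can be assigned to either and their values are uncertain. Of 20 with a tested parent named in the symbol, 16 had a fold of the same sign as the parent, and in 7 pairs both were called, always in the same direction. Some pairs share a parent: Rps15a-ps4 and Rps15a-ps6 are both among the 7, and Pisd-ps1 and Pisd-ps2 both among the 20. Rps19-ps3 (69.2 to 124 FPKM) and Rps19 (214 to 363 FPKM), which encodes a protein of the small ribosomal subunit, both rose. So did Ptma-ps2, listed as Gm12504 (13.0 to 22.1 FPKM), and Ptma, the gene for prothymosin alpha (410 to 747 FPKM), as well as Hmgb1-rs17 (10.5 to 16.5 FPKM) and Hmgb1, a chromatin protein (104 to 173 FPKM). Gpr137b-ps (17.5 to 9.51 FPKM) and Gpr137b (7.30 to 4.59 FPKM) both fell. Bambi-ps1, in contrast, rose while Bambi was at 0.316 FPKM in WT and 0.378 in Srf KO and was not called. The most abundant pseudogenes were Gm12191 (527 FPKM in WT, 762 in Srf KO, sharing a locus with Rpl30) and Gm12070 (479 and 353 FPKM), and neither was called.

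Of the 16 members that RefSeq now annotates as coding, the 3 called all rose. Rhno1, listed as 5930416I19Rik and encoding a protein of the DNA damage checkpoint, rose from 12.7 to 20.8 FPKM (0.71 ± 0.22). The most abundant, 6430706D22Rik, shares a locus with 3 coding genes and was at 114 FPKM in WT and 100.4 in Srf KO.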

How the data were processed

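Per the submitters' processing notes CASAVA 1.8.1, TopHat2 2.0.0, Cufflinks 2.0.0 and mm10 were used; their settings are not given in the sources used here. The gene and isoform tables were used. Their FPKM values, 1 per genotype, are as the authors deposited them, with the authors' test statistic, p-value and q-value. Per the file headers the deposited log2 fold sets WT against KO; its sign was turned here. The authors' call equalled an adjusted p of at most 0.05 for every tested gene. Calls rest on the authors' Cufflinks test across all genes; a model on per-sample values was not possible because the tables hold pooled values.

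Members and lists were chosen with earlier results of these data known. Classes came from RefSeq (GRCm38.p6) and GENCODE M21. Named genes were taken from the 12 called members with the largest fold in each direction, up to 8 per class with the highest FPKM, every called member sharing a locus with a coding gene, 3 on either side of the level minimum and up to 4 per comparison list; the other genes named were chosen after their values were seen. Promoter windows and microRNAs came from RefSeq tables. Positions count from 1. Figures were drawn with matplotlib 3.10.9, tables read with pandas 2.3.3, and values computed with scipy 1.17.1 and numpy 2.4.6 in Python 3.11.15, and the fold, error and adjustment were tested on simulated data. The alternatives were other level, length, locus, adjusted p and fold limits, log2(FPKM + 1), centring, transcript rows and the host list.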

Additional observations from a re-analysis of the deposited data

How the results depend on the processing

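The count of 111 called members fell to 69 (45 higher, 24 lower) with a minimum of 5 FPKM, to 71 (43 higher, 28 lower) at an adjusted p of 0.01 and to 57 (33 higher, 24 lower) with at least a 2-fold change, each by construction a subset of the calls. With no minimum, without shared loci, with transcripts of 300 bases or more, with X and Y kept, or with both genotypes at 1 FPKM (added after seeing the data) it stayed between 88 and 138. The median log2 fold of the members lay between -0.02 (centred on all tested genes) and 0.24 (without shared loci), so its sign is not settled. From the fixed symbol list alone 12 of 16 snoRNA hosts were called, with a median of 1.18. Centring all folds on 0.08 ended the calls of Gm10653, Gm6793 and Mir684-2 and added those of 2310001H17Rik, Dleu2 and Gm12070 among 88 named members. In the isoform table the transcript with the highest FPKM was not tested for 9 named members, and 1700071M16Rik, I730030J21Rik and Snord89 were not called there. Gm1821 has 2 transcript rows of opposite sign: the more abundant was called lower with a log2 fold of -0.52, while the gene row repeats the other, with a log2 fold of 0.19, and was not called; the cause was not tested. Of 444 members with 1 transcript row, 100 were called as genes and 80 as transcripts at the same FPKM and p-values: 11 of the 20 others were listed as not tested and 9 missed the threshold. Leaving out a sample was not possible, since values are pooled per genotype, and depth is unknown.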

Other observations

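Below the level minimum, 263 further autosomal non-coding genes were tested, of which 16 were called higher and 11 lower in Srf KO. This is 10.3%, beside 35.5% of all tested genes. Pvt1, a lncRNA next to the oncogene Myc, rose from 0.0667 to 0.235 FPKM (log2 fold 1.82 ± 0.61). Gm4956 rose from 0.0286 to 0.568 FPKM, with an implied error of 1.49. AY512931 fell from 0.994 to 0.376 FPKM (-1.40 ± 0.33). The genes named here were chosen after their values were seen.

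Mir684-1 on the X chromosome was at 248 FPKM in WT and 665 in Srf KO and was called, and Mir684-2 on chromosome 4, with the same name stem, was at 233 and 592 FPKM. Both loci are short, and which copy the reads came from was not tested.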
